A study of Mus musculus with 8 samples.

Results

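The Ifitm genes encode interferon-induced transmembrane proteins, and the 5 family members examined here were Ifitm1, Ifitm2, Ifitm3, Ifitm5 and Ifitm6, out of 19938 genes with a probe set of their own. Members were chosen by gene symbol, and where a gene had several probe sets the one selected was chosen by its mean level over all 8 arrays. The family was put forward with results of these arrays already known, so the values of its members are given as a description, with no p-value for a member. Counts of members past a threshold stand beside the same count over all genes.

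The arrays came from mouse bone marrow cells, sorted as c-Kit-positive from animals with floxed alleles of Runx1 and Cbfb, and turned into a growing culture by the leukaemia fusion protein MLL-AF9. All cultures, controls included, also carried CreERT2, a Cre recombinase switched on by 4-hydroxytamoxifen (4OHT), and a puromycin marker. Cultures grown in cytokine-enriched methylcellulose received ethanol (4 controls) or 4OHT at 1 µM (4 cultures labelled Runx1/Cbfb-KO) for 24 h, in 2 clones with 2 biological replicates each, which gives 4 sets of a control and a treated culture of the same clone and number. The samples hold no culture that received 4OHT without floxed genes, so 4OHT and active Cre cannot be told apart from the loss of Runx1 and Cbfb. Mouse age and strain are not stated by the labels.

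IFITM proteins are small membrane proteins with a CD225 domain that hinder the fusion of enveloped viruses with cell membranes. Interferons raise several of them through the transcription factor complex ISGF3, which binds interferon-stimulated response elements. IFITM1 lies mostly at the cell surface, where it joins the tetraspanin CD81, while IFITM2 and IFITM3 lie mostly in endosomes and lysosomes. IFITM5 is a protein of bone-forming cells, and Ifitm6 is a mouse member found in myeloid cells.

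The arrays were checked first against their labels. The lowest and highest array median were 6.26 and 6.39 (log2), and no 2 arrays held identical values. Runx1 signal was higher in the arrays labelled deleted in 4 of 4 sets (mean log2 change 0.52 ± 0.03, SD, n = 4 sets), which goes against the label, and Cbfb was lower in 4 of 4 sets (-0.18 ± 0.08). Each had 1 probe set, and where its probes lie relative to the floxed exons was not examined, so whether this signal bears on the deletion is not known. The treated cultures are called labelled deleted below. The myeloid progenitor genes Mpo (12.93 to 13.18 over the 8 arrays), Elane (13.27 to 13.36) and Hoxa9 (10.98 to 11.13) varied little. Other progenitor genes varied more, such as Cebpa (8.11 to 9.84) and Kit (9.50 to 10.15). Cd3e, which defines T cells, lay between 5.80 and 6.19. The deposited table held no detection calls, so no gene could be called present or absent. Levels are compared between arrays for the same gene, never between genes.

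Ifitm1, the member known best at the cell surface, stood apart from the rest of the family. Its log2 level in clone 1 was 11.74 and 11.60 in the control cultures and 11.14 and 11.08 in those labelled deleted. In clone 2 it was 10.74 and 10.76 in the controls and 10.37 and 10.37 in the cultures labelled deleted. The culture labelled deleted was lower than its control in every set, and each clone's arrays of the 2 groups did not overlap, although all 4 clone 1 arrays lay above all 4 clone 2 arrays. The set differences were -0.60 and -0.52 in clone 1 and -0.37 and -0.40 in clone 2, a mean of -0.47 ± 0.11 (SD, n = 4 sets), or 72.1% of the control level. By clone this was 1.47-fold lower in clone 1 and 1.30-fold lower in clone 2.

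**Figure D1:**
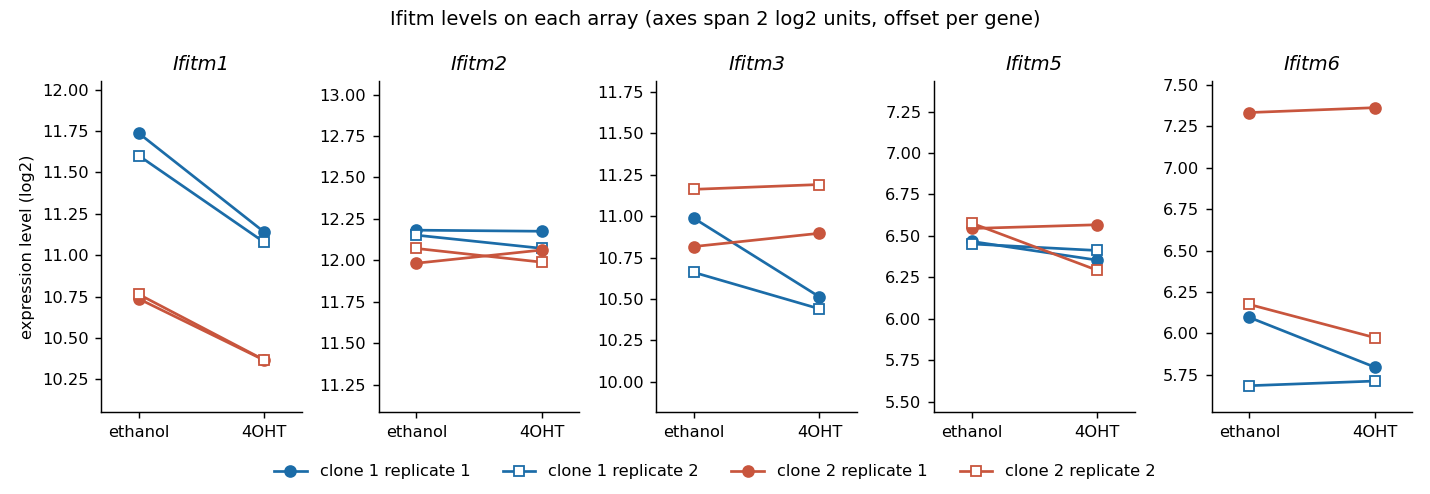
Log2 expression level of each Ifitm gene in the ethanol control and the 4OHT culture of each set, with lines joining the cultures of a set and the clone given by colour. Ifitm1 slopes down in 4 of 4 sets, Ifitm3 slopes down in clone 1 alone, and Ifitm6 is high in clone 2 replicate 1 under both treatments.

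Ifitm2, an endosomal relative encoded next to Ifitm1, stayed within a narrow range. Its log2 level ran from 11.98 to 12.18 over the 4 control arrays (12.10 ± 0.09, SD) and averaged 12.07 ± 0.08 (SD, n = 4) after 4OHT. The set differences were -0.01, -0.08, 0.08 and -0.08, so 3 sets were lower and 1 was higher, and the groups overlapped. Their mean was -0.02, and -0.06 without the set of clone 2, replicate 1.

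Ifitm3, the member best known for blocking influenza virus in endosomes, had set differences of opposite sign in the clones. In clone 1 its log2 level was 10.99 and 10.66 in the controls and 10.51 and 10.44 in the cultures labelled deleted. In clone 2 it was 10.82 and 11.16 in the controls and 10.90 and 11.19 in the cultures labelled deleted. Both sets of clone 1 were thus lower (-0.47 and -0.22) and both sets of clone 2 slightly higher (0.08 and 0.03). The mean change was -0.35 in clone 1, or 1.27-fold lower, against 0.05 in clone 2. Over all sets the mean was -0.15 with an SD of 0.25, larger than the mean itself, and it was -0.04 without the set of clone 1, replicate 1.

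Ifitm5, the gene of bone-forming cells, varied by 0.28 over all 8 arrays. Its log2 level was 6.51 ± 0.06 (SD, n = 4) in controls and 6.41 ± 0.12 after 4OHT, and the set differences of -0.11, -0.04, 0.02 and -0.28 had an SD of 0.13 about a mean of -0.10. The largest of these differences, in clone 2, replicate 2, was a level of 6.58 in the control against 6.29, and without this set the mean was -0.04.

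Ifitm6, the myeloid member, varied more between sets than with treatment. Its log2 level in the control and the culture labelled deleted was 6.10 and 5.80 in clone 1, replicate 1, and 5.68 and 5.71 in clone 1, replicate 2. It was 7.33 and 7.36 in clone 2, replicate 1, and 6.17 and 5.97 in clone 2, replicate 2. One set was therefore high under both treatments, and the mean change of -0.11 ± 0.17 (SD, n = 4 sets) was made of 2 lower and 2 higher sets. It was -0.05 without the set of clone 1, replicate 1.

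Read against all genes, 1 of the 5 members passed in the paired limma fit of deleted against control arrays (adjusted p under 0.05 over all genes), and this was Ifitm1, on the lower side. The same fit called 0.953% of all genes, or 190, and nothing is read from the comparison because the family was chosen with this contrast known. The Ifitm1 call ended in the fit with neither set nor clone as a term, and without the variance trend, but held with clone as the only covariate and no replicate block. The number of genes called was 0 with neither term (317 at an unadjusted p under 0.05), 23 with clone as the only covariate, 13 without the trend (1126 at an unadjusted p under 0.05), 98 without the set of clone 1, replicate 2, 110 without clone 2, replicate 1, and 418 without clone 2, replicate 2. Ifitm1 passed in each of the fits that left out 1 set. These fits reuse the same arrays, so nothing is read from them about Ifitm1 either. Lower in 4 of 4 sets was likewise 1 of the 5 members, Ifitm1, against 6.51% of all genes.

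Other probe sets of the same genes were described as well. The second Ifitm1 probe set, 10570434, changed by -0.64, -0.54, -0.39 and -0.72 in the 4 sets (mean -0.57 ± 0.14, SD), so the set of clone 2, replicate 2 was its largest change and not among its smaller ones. Its levels ran from 10.10 down to 9.27 in clone 2 and from 11.26 down to 10.47 in clone 1, again without overlap between clones. The other Ifitm2 probe sets had mean changes of 0.00 ± 0.07 and -0.02 ± 0.11 (SD, n = 4 sets). The family's members are similar in sequence, and whether probes of a member also bind transcripts of another was not tested.

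**Figure D2:**
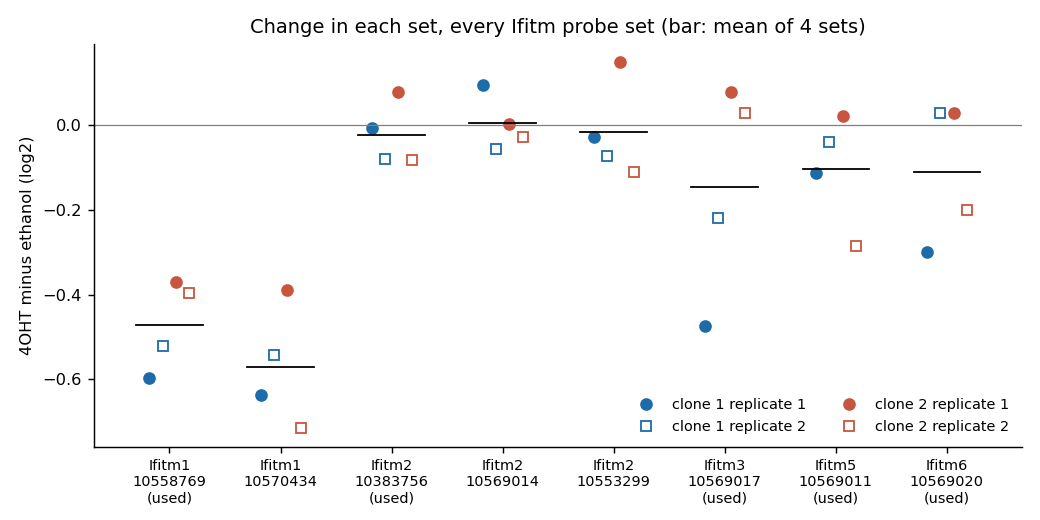
Difference in log2 level, 4OHT minus ethanol, in each of the 4 sets for all 8 Ifitm probe sets, with a bar at the mean of the sets and the probe set used per gene marked. Both Ifitm1 probe sets lie below 0 in every set, at means of -0.47 and -0.57, while the 3 Ifitm2 probe sets lie around 0.

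The second description concerns the level of the family in each clone without 4OHT. Ifitm1 was 1.89-fold higher in clone 1 than in clone 2 among control arrays (means 11.67 and 10.75), a gap many times the spread between replicates of a clone (0.07, pooled SD). In the cultures labelled deleted the clones were 1.67-fold apart (11.11 and 10.37). The clone 1 cultures labelled deleted were still above the clone 2 controls. The order of the 4 groups of cultures was thus control clone 1, clone 1 labelled deleted, control clone 2 and clone 2 labelled deleted, with no overlap between neighbours.

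Markers of cell types also differed between the clones in the same control arrays. The limma fit of clone 2 against clone 1 (adjusted p under 0.05) called 3.97% of all genes. At an unadjusted p under 0.05 were 2458 of the 19938 genes. Of the 14 progenitor markers 1 was higher and 3 were lower in clone 2 by this fit. So were 2 and 1 of the 11 monocyte genes and 1 and 1 of the 7 B cell genes. Of 8 mast cell genes 1 was lower, and 1 each of 5 megakaryocyte, 9 T and NK cell and 8 dendritic cell genes was higher, while 0 of 12 late neutrophil genes (4 at an unadjusted p under 0.05) and 0 of 5 erythroid genes (0 at an unadjusted p under 0.05) passed. Lower in clone 2, as Ifitm1 was, were Cebpa, a myeloid transcription factor gene (-0.70 ± 0.12, SE), and Adgre1, a macrophage receptor gene (-1.23 ± 0.16). Adgre1 was the only monocyte gene called lower, while the 2 others that passed were higher. Nkg7, a granule gene (1.01 ± 0.09), and Flt3, a receptor gene of progenitors and dendritic cells (1.16 ± 0.17), were higher. The part of such differences in the Ifitm1 level was not tested.

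For Ifitm2 the order was the same in direction but small, with control means of 12.17 in clone 1 and 12.03 in clone 2, and the treated arrays overlapped the controls in clone 2. Ifitm3 had control means of 10.82 and 10.99 that overlapped between clones, and their difference of 0.17 became -0.01 without the set of clone 2, replicate 2. In the cultures labelled deleted its clone means were 10.48 and 11.04 and did not overlap. Ifitm5 control means were 6.46 and 6.56, apart by 0.10. Ifitm6 control means were 5.89 in clone 1 and 6.75 in clone 2, but without the set of clone 2, replicate 1, the difference of 0.86 fell to 0.28.

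Control arrays of the clones did not overlap for 4 of the 5 members, all but Ifitm3, against 52.2% of all genes. A limma fit of clone 2 against clone 1 among control arrays passed 1 member, Ifitm1, against 3.97% of all genes, or 792. At an unadjusted p under 0.05 were 2 members, Ifitm1 and Ifitm2, and 2458 of the 19938 genes. Without the set of clone 1, replicate 1, it called 385 genes, without clone 1, replicate 2, 469, and without clone 2, replicate 2, 475, where Ifitm6 passed as well as Ifitm1. The difference between clones in the change itself was fitted after the values had been seen. By limma 0 of the 5 members passed, against 0.0100% of all genes, or 2, and 2 members, Ifitm1 and Ifitm3, were at an unadjusted p under 0.05, as were 393 of the 19938 genes. A difference between the clones in the change of Ifitm3 was therefore not shown at the threshold over all genes.

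The Ifitm genes lie side by side on chromosome 7, which the choice by symbol did not use. In the RefSeq annotation of GRCm38.p6 they run from Ifitm5 (chr7:140948958-140950243) through Ifitm2 (chr7:140954837-140959686), Ifitm1 (chr7:140967429-140969827) and Ifitm3 (chr7:141009590-141010744) to Ifitm6 (chr7:141015812-141016892). The cluster spans 67.9 kb, with no other protein-coding gene inside it. The changes of the nearest genes outside it lay closer to 0 than that of Ifitm1. Mean control levels of these neighbours ran from 5.83 (Cox8b) to 8.51 (Pgghg) on the log2 scale. Without detection calls, whether they were expressed and could have fallen is not known. On the Ifitm5 side, the mean log2 change was -0.04 ± 0.06 (SD, n = 4 sets) for Pgghg, a glucosidase gene, -0.06 ± 0.25 for Nlrp6, an inflammasome sensor gene, and 0.09 ± 0.11 for Cox8b, a subunit gene of cytochrome c oxidase. On the Ifitm6 side it was 0.11 ± 0.12 for B4galnt4, a glycosyltransferase gene, 0.02 ± 0.14 for Pkp3, which encodes a plakophilin of desmosomes, and 0.00 ± 0.12 for Sigirr, an inhibitory receptor of interleukin 1 signalling. None of these 6 neighbours passed in the paired limma fit (adjusted p = 1 for each).

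**Figure D3:**
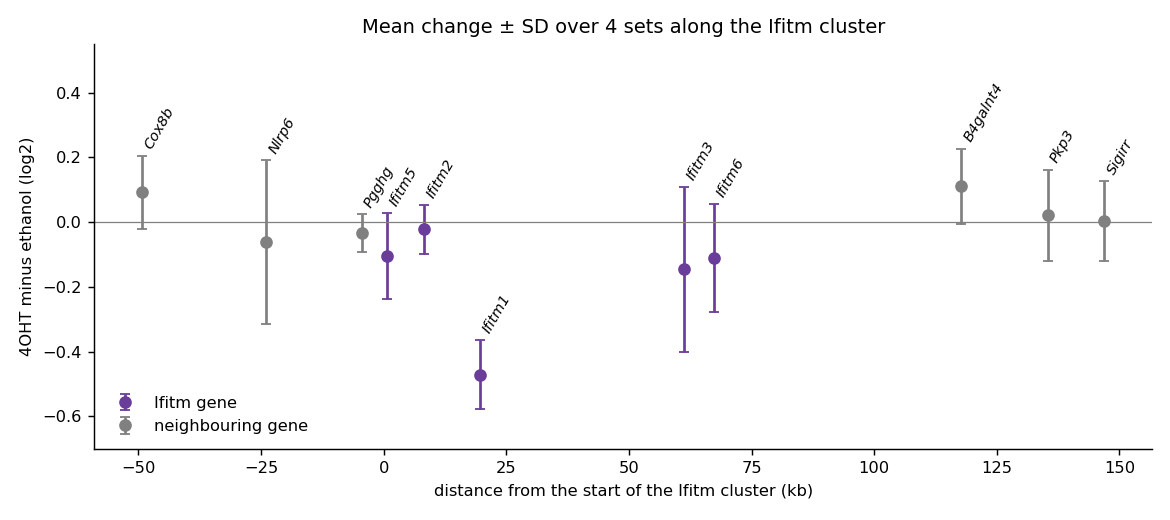
Mean difference in log2 level, 4OHT minus ethanol, against distance in kb from the start of the Ifitm cluster for its 5 genes and the 3 nearest protein-coding genes on each side, with error bars of 1 SD over 4 sets. Ifitm1 lies at -0.47, and the other 10 genes lie between -0.15 and 0.11.

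Because the changes within the cluster were unequal, the stretch before the start site is shown for Ifitm1 and for the 3 members whose window held a motif match. The sequences are the 250 bases upstream of the RefSeq start in GRCm38.p6, written 5′ to 3′ along the gene. They are chr7:140967826-140968075 on the plus strand for Ifitm1, and on the minus strand chr7:140955962-140956211 for Ifitm2, chr7:141010745-141010994 for Ifitm3 and chr7:141016893-141017142 for Ifitm6. For Ifitm1 and Ifitm2 this start lies inside the span of the gene given above, since other transcripts begin farther upstream. Capitals mark a match to one of the motifs named after them.
Ifitm1: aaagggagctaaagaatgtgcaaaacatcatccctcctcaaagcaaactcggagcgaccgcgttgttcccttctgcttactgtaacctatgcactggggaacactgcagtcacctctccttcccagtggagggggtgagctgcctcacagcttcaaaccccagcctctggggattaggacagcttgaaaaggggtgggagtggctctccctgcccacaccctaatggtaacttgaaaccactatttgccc
Ifitm2: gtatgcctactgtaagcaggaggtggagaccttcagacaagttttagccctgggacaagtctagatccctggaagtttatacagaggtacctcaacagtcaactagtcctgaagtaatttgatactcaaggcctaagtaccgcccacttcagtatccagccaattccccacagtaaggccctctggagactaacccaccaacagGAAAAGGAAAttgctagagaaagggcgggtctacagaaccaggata
Ifitm3: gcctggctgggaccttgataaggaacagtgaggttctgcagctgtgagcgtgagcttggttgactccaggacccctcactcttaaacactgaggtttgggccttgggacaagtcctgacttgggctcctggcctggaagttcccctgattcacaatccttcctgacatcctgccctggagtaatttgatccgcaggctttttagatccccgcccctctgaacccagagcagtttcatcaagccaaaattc
Ifitm6: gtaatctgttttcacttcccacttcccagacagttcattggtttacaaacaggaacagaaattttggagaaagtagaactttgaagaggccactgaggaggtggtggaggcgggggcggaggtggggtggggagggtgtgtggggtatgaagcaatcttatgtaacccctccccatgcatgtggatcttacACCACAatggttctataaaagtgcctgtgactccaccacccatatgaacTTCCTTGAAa

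The search covered 300 bases, from 250 before to 50 after each start, on both strands, and matches may overlap. The motifs were the interferon-stimulated response element GAAANNGAAA, the STAT dimer site TTCNNNGAA, and the RUNX letters TGTGGT and TGCGGT. GAAANNGAAA is present in 3.44% of all 32851 RefSeq windows of this length, TTCNNNGAA in 8.30%, TGTGGT in 16.8% and TGCGGT in 6.45%. The Ifitm2 window held 1 match to GAAANNGAAA, starting 46 bases before the start, and the Ifitm3 window held 2, which begin at bases 3 and 20 after the start. These Ifitm3 matches are shown in 30 bases each, with the motif in capitals, and the second overlaps a TTCNNNGAA match that begins at base 14.
Ifitm3 at base 3: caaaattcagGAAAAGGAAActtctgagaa
Ifitm3 at base 20: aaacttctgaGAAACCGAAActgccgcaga

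The letters matched at base 3 of Ifitm3 are the same as those in Ifitm2, GAAAAGGAAA. The Ifitm1 and Ifitm5 windows held none of the 4 motifs in these letters, and the Ifitm6 window held 1 TGTGGT match on the opposite strand, 59 bases before the start, and 1 TTCNNNGAA match 10 bases before it. A match describes letters only, and the table gives 1 window per member.

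The interferon pathway around the family was described from lists of genes that are no members. Of 20 measured genes of the interferon receptors, JAK kinases, STATs and interferon regulatory factors, 0 passed in either direction in the paired limma fit (2 at an unadjusted p under 0.05), and the median log2 change was 0.02 against 0.00018 over all genes. Irf5, which encodes a regulatory factor of myeloid cells, had the smallest p of the list, with a log2 change of 0.31 ± 0.09 (SE, n = 4 sets; limma adjusted p = 0.226). Ifnar1 and Ifnar2, the type I interferon receptor subunits, were at 0.09 ± 0.04 and 0.06 ± 0.03, and the ISGF3 genes Stat2 and Irf9 at 0.02 ± 0.07 and 0.18 ± 0.07 (SE), with none past the threshold.

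Of 38 measured interferon-stimulated genes outside the family, 0 passed, against 0.953% of all genes. At an unadjusted p under 0.05 were 7 of the 38, against 1289 of all 19938 genes. The median log2 change of the list was 0.04, against 0.00018 over all genes, and 26 of the 38 were above 0. The share of all genes above 0 was not counted, so nothing is read from these signs. Bst2, which encodes the tethering protein tetherin, was at -0.06 ± 0.06 (SE). Ifit1 and Ifit3, whose proteins bind viral RNA or its partners, were at 0.03 ± 0.07 and 0.05 ± 0.07. Rsad2, the gene of the antiviral enzyme viperin, was at 0.00 ± 0.08. The log2 level over all arrays was 4.39 to 4.79 for Ifit1, 4.36 to 4.59 for Ifit3 and 5.78 to 6.09 for Rsad2. Without detection calls, whether these genes were expressed and could have fallen is not known. Cmpk2, a nucleotide kinase gene that neighbours Rsad2 in the genome, had the smallest p, with set differences of -0.32, -0.37, -0.17 and -0.30 (mean -0.29 ± 0.07, SE; limma adjusted p = 0.117). It was lower in 4 of 4 sets, as were 2 of the 38 genes, the other being Ly6e, against 6.51% of all genes. Cmpk2 passed with array weights, with quantile normalization and without the set of clone 2, replicate 2.

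Other CD225 domain genes and proteins that act with IFITM proteins were described the same way. Of 7 measured genes with a CD225 domain, 0 passed (0 at an unadjusted p under 0.05, limma), and Ifitm7 and Ifitm10, which lie outside the cluster, were at 0.06 ± 0.09 and 0.00 ± 0.09 (SE). The smallest p of the list belonged to Syndig1l (0.18 ± 0.10, SE; limma adjusted p = 0.907). Of 16 genes for partners and modifying enzymes, 0 passed (4 at an unadjusted p under 0.05). Cd63, a tetraspanin of late endosomes, had the smallest p (-0.12 ± 0.03, SE; limma adjusted p = 0.0905). Cd81, the tetraspanin partner of IFITM1, was at 0.09 ± 0.03, Zdhhc20, an enzyme that adds palmitate to IFITM3, at 0.05 ± 0.06, and Nedd4, the ubiquitin ligase that acts on IFITM3, at 0.07 ± 0.02, none past the threshold.

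**Figure D4:**
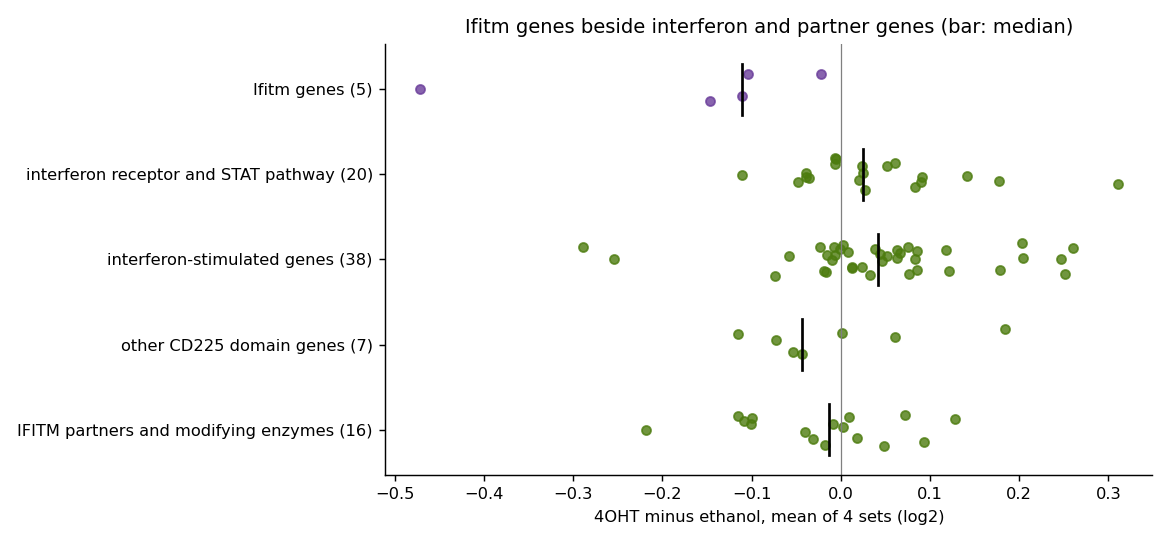
Log2 difference, 4OHT minus ethanol, as the mean of 4 sets for each Ifitm gene and each gene of 4 other lists, with the number of genes in brackets and a bar at the median; points are spread vertically for legibility. Ifitm1 at -0.47 lies below every gene of the other lists, of which Cmpk2 at -0.29 is the nearest.

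Between the clones, the same lists gave calls in both directions. Among control arrays, 3 of the 38 interferon-stimulated genes were higher and 3 lower in clone 2 (limma, adjusted p under 0.05), and 32 did not pass. Over all genes this fit called 3.97%. The names were taken after the values had been seen. Lower in clone 2, as Ifitm1 was, were Cmpk2 (-0.93 ± 0.13, SE), Ifih1, the gene of the RNA sensor MDA5 (-0.70 ± 0.16), and Gbp3, a guanylate-binding protein gene (-2.79 ± 0.11). Those higher in clone 2 were Oas2, an oligoadenylate synthetase gene (0.62 ± 0.11), Ifi27 (0.71 ± 0.12) and Psmb8, an immunoproteasome subunit gene (0.51 ± 0.12). Their limma adjusted p-values ran up to 0.0406. Of the 20 receptor and STAT pathway genes 1 passed, Tyk2, a kinase of the type I receptor, which was lower in clone 2 (-0.61 ± 0.11, SE; limma adjusted p = 0.00814). Cd81 was higher in clone 2 (0.42 ± 0.05, SE; limma adjusted p = 0.00059).

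The genes whose profile over the 8 arrays lay nearest to that of a member were found by the root mean square distance between levels centred on each gene's mean, for the 2 members with a range of at least 1 log2 unit. Nearest to Ifitm1 were Mlph, which encodes a linker of RAB27A to myosin (distance 0.12), Cmpk2 (0.13) and Pip5k1b, a phosphoinositide kinase gene (0.15). All 3 had higher control levels in clone 1 than in clone 2 and were lower in the culture labelled deleted in 4 of 4 sets, as their choice by likeness favours. Their mean changes of -0.35, -0.29 and -0.20 were smaller than the -0.47 of Ifitm1. Nearest to Ifitm6 were Rnf17 (0.10), Pram1, an adaptor gene of myeloid cells (0.15), and Fcnb, which encodes a ficolin of neutrophils (0.16).

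**Figure D5:**
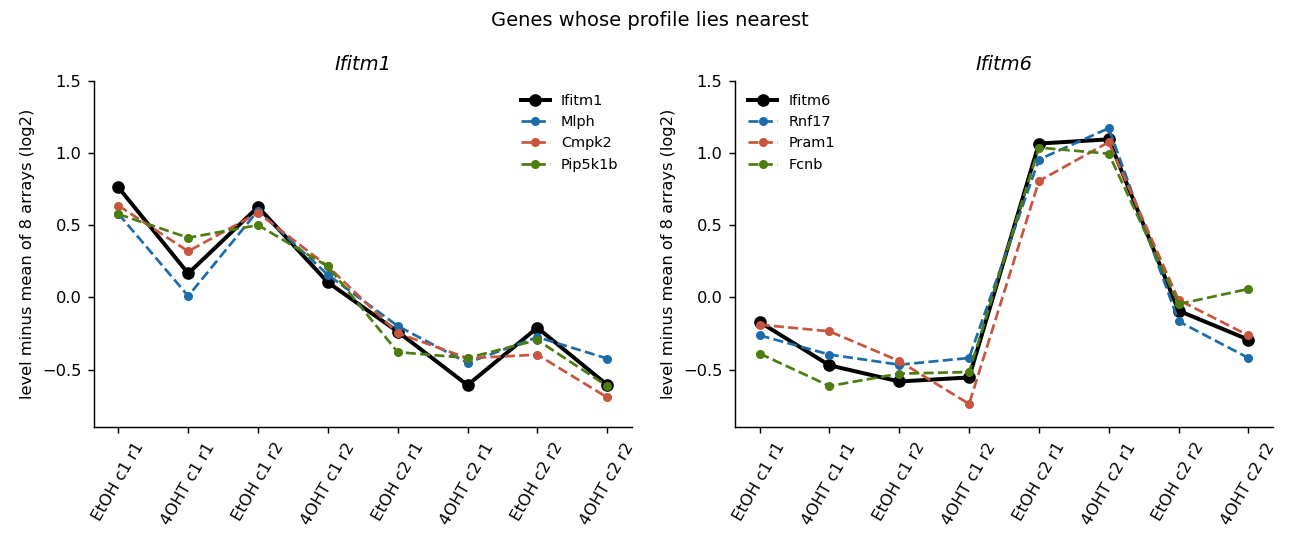
Log2 level minus the mean of the 8 arrays for Ifitm1 and Ifitm6 (black) and the 3 genes nearest to each, with arrays ordered by clone (c) and replicate (r), ethanol (EtOH) before 4OHT; the lines join arrays for legibility and do not show time. The genes near Ifitm1 are high in clone 1, and those near Ifitm6 are high in clone 2 replicate 1.

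The set in which Ifitm6 was high was also high in markers of late neutrophils. The mean log2 level of 12 such genes was 8.004 and 8.085 in the control and the culture labelled deleted of clone 2, replicate 1, and between 6.84 and 7.52 on the other 6 arrays. Of the 12, 7 had both their highest control and their highest deleted array in this set, against 5.34% of all genes. The set was taken because Ifitm6 was high in it, so Ifitm6 meets this rule by choice and is not counted. These 7 were Ltf, Camp, Ngp, Mmp8, Mmp9, S100a8 and S100a9, genes of neutrophil granules and cytosol. The others, Lcn2, Cxcr2, Retnlg, Cd177 and Ly6g, did not. Of the 14 progenitor markers 3 met this rule, in which any margin counts, the granule protein genes Mpo, Elane and Prtn3. Their control levels in clone 2, replicate 1 were close to the next highest control. These were 13.155 against 13.114 for Mpo, 13.347 against 13.343 for Elane and 12.713 against 12.626 for Prtn3. Of 11 monocyte and macrophage genes 1 met the rule, and the mean level of the 11 ran from 6.41 to 6.63 over all arrays. Outside the high set the order differed. The late neutrophil mean was lowest in clone 2, replicate 2 (6.97 in the control and 6.84 in the culture labelled deleted). Ifitm6 was higher in that set than in both sets of clone 1, under either treatment. The part of late neutrophils and the other cell types in the Ifitm6 level was not tested. In bulk cultures more cells of a type and more RNA per cell cannot be told apart. Over the 4 sets, 1 of the 12 late neutrophil genes fell in the paired limma fit and 0 rose, that gene being Ngp (-0.45 ± 0.09, SE; adjusted p = 0.0305), a call that ended with robust moderation among others (adjusted p = 0.476, and up to 1 over its alternatives).

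Markers of the other cell types the cultures could hold were read from the same limma fit, in which no listed marker rose. That fit called 0.953% of all genes. Of the 14 progenitor markers 4 fell, the transcription factor genes Cebpa (-0.66 ± 0.08, SE) and Spi1 (-0.14 ± 0.03), the receptor gene Kit (-0.36 ± 0.05) and the granule protease gene Prtn3 (-0.15 ± 0.03), with adjusted p-values up to 0.0465. All 4 calls ended with neither set nor clone as a term (adjusted p = 1) and without the variance trend (0.0747 to 0.721), and with arrays centred on the median those of Kit (0.0636), Prtn3 (0.320) and Spi1 (0.752) did. With clone as the only covariate the calls of Kit (limma adjusted p = 0.288), Spi1 (0.408) and Prtn3 ended, while Cebpa kept its call (0.0292). Spi1 lost its call with robust moderation too (limma adjusted p = 0.0539). Prtn3 and Spi1 also lost theirs without clone 1, replicate 1 (limma adjusted p = 0.0877 and 0.111) and without clone 1, replicate 2 (0.0603 and 0.430). Of 9 T and NK cell genes 1 fell, the granule gene Nkg7 (-0.23 ± 0.04, SE, limma adjusted p = 0.0179). Its call ended with neither set nor clone as a term and with clone as the only covariate (limma adjusted p = 0.345). It also ended without the variance trend (0.381), with centring (0.241) and without clone 1, replicate 2 (0.0654). None of the 11 monocyte, 8 mast cell, 5 erythroid, 5 megakaryocyte, 7 B cell or 8 dendritic cell genes passed, with 1 gene of each of these lists at an unadjusted p under 0.05. The part of these shifts in the Ifitm1 change was not tested.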

How the data were processed

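Expression was measured on 8 Affymetrix whole-transcript arrays, 1 per culture. The deposited values are probe-set levels on the log2 scale; RMA, which corrects background, normalizes by quantiles and summarises probes, is named in the submitters' processing notes. Neither its version nor a chip definition is stated there. The base of the logarithm was inferred from the range of the values. The table held 35556 probe sets, of which the platform annotation gave 21789 a single symbol, 1621 several and 12146 none. The brightest single-symbol probe set was taken per gene, leaving 19938 genes, and 8 probe sets belonged to the 5 members. Promoters came from RefSeq (GRCm38.p6), where 5 of 5 members matched.

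Fits used limma 3.58.1 in R 4.3.3 (lmFit, eBayes with trend, two-sided, Benjamini-Hochberg over all genes, threshold 0.05) and were tested on simulated data. The deletion fit had the set as a block, since the design text compares 4 sets; controls and treated cultures of a set deviated together (r between 0.724 and 0.817 across genes), with the pairing read from the sample titles. The design text also names 2 independent experiments without tying them to replicate numbers, so what the sets of a clone share is not known. The clone fit had 4 cells of clone by group and no set term, so it counts the 2 cultures of a set as independent. Where they deviate together within a clone, its p-values may be too small. The r values above include differences between the clones, so they do not measure this. SE values are moderated and borrow spread from other genes, and n = 4 sets come from 2 clones, so p-values measure spread between these cultures only. Alternatives changed the pairing, variance model, array weights, normalization, probe sets, level filter and sets. Names followed a rule: all members, Runx1, Cbfb, up to 4 genes per list past the threshold or else the smallest p, 3 nearest profiles and 3 neighbours per side; genes named by role or for the clones were added. Members and lists were chosen with earlier results of these data known. The number of arrays limits the precision.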

Additional observations from a re-analysis of the deposited data

Results flagged for a closer look

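The set differences of Ifitm3 had opposite signs in the clones. Both sets of clone 1 were lower in the culture labelled deleted, and both sets of clone 2 were slightly higher, by 0.08 and 0.03. These 2 values are smaller than the spread between control replicates of a clone (0.24, pooled SD). The share of all genes with such a split was not counted. The change in clone 2 minus that in clone 1 was 0.40 on the log2 scale. The limma fit of this difference over all genes did not pass Ifitm3.

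Ifitm6 had a sample far from the others among the 4 arrays labelled deleted. The highest, clone 2, replicate 1, stood at 7.36, and its gap to the next array was 0.841 of the whole range, above Dixon's critical value for 4 samples. Of 15 such groups of 4 values examined for the members, 1 was picked out in this way, and chance picks out about 1 group in 20.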

How the results depend on the processing

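Ranges with 1 set left out are given as values only, since leaving out a set cannot move these values beyond the replicate spread. The mean change of Ifitm1 ran from -0.52 to -0.43 over its alternatives and from -0.51 to -0.43 with 1 set left out. With 1 set left out the others ran from -0.06 to -0.0022 (Ifitm2), -0.22 to -0.04 (Ifitm3), -0.15 to -0.04 (Ifitm5) and -0.16 to -0.05 (Ifitm6). The clone difference in control arrays ran from -0.99 to -0.85 (Ifitm1), -0.18 to -0.10 (Ifitm2), -0.0067 to 0.34 (Ifitm3), 0.09 to 0.12 (Ifitm5) and 0.28 to 1.44 (Ifitm6). Under another normalization or probe-set choice, the member values that moved by more than the replicate spread were the clone differences of Ifitm1 with the mean of its probe sets (-1.01), Ifitm2 with arrays centred on the median (-0.19), and Ifitm5 with quantile normalization (0.050) or centring (0.049). Ifitm1 passed in 11 of 13 alternatives of the paired deletion fit and 9 of 9 of the clone fit. These alternatives reuse the values the family was chosen with, so they show dependence on the processing only. Genes called in the deletion fit, 190 in the main setting, numbered 0 with no replicate block, 23 with clone as the only covariate, 13 without the variance trend, 388 with array weights, 88 with centring and 98 to 418 with 1 set left out. The clone fit, with 792, gave 385 to 588 with 1 set left out. The difference between clones in the change, with 2 genes, gave 0 without the trend (304 at an unadjusted p under 0.05), and 1 with quantile normalization or with genes above the median level only. Of the 29 named genes outside the family none changed direction after passing, and 33 of their alternative values lost a call while 15 gained one; the cause was not tested.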

Other observations

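Gbp3 and Igll1, chosen after their values were seen, differed more between the clones than Ifitm1 did. The Gbp3 control level was 9.37 in clone 1 and 6.57 in clone 2, and the log2 change in the cultures labelled deleted was 0.25 ± 0.07 (SE, n = 4 sets; limma adjusted p = 0.136), higher in 4 of 4 sets. Ifitm1 and Gbp3 thus shared the direction of the clone difference and had opposite signs after 4OHT. Igll1, which encodes part of the surrogate light chain of B cell progenitors, was also higher in clone 1, at 9.44 against 7.05 in clone 2 controls (-2.39 ± 0.19, SE; limma adjusted p = 3.7e-05).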
